A study of Mus musculus with 3 samples.

Results

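miR-26a-5p and miR-26b-5p are the guide strands of a small miRNA family whose precursors lie in introns of the Ctdsp genes. They were followed in mouse liver through every read that could be assigned to the precursors Mir26a-1, Mir26a-2 and Mir26b, which are 3 of the 1174 miRNA precursors searched. All animals were C57BL/6 mice given scAAV9, an adeno-associated virus vector with a self-complementary genome, and the small RNAs were taken from liver 4 weeks later. The vector carried a Tough Decoy against miR-122 (TuD-miR-122), a Tough Decoy against let-7 (TuD-let-7), or no decoy (mock). A Tough Decoy is a hairpin transcript with binding sites that hold one miRNA away from its targets, and the study asked how such decoys act on the stability and integrity of miRNAs. Neither decoy was aimed at miR-26. Each group had 1 library, so the differences have no replicate check and no p-values are given. All intervals are 95% intervals that cover counting error only, exact except for differences between shares. The sources used here do not say how many animals stand behind a library.

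miRNAs are cut from hairpin precursors by Drosha and Dicer, and one strand of the resulting duplex, the guide, is kept by an Argonaute protein while the passenger strand is discarded. The guide finds target mRNAs mainly through its seed, the stretch near the 5′ end, and its 3′ end can be shortened by exonucleases or extended by nucleotidyl transferases that add U or A. miR-26 is abundant in adult liver, is known to restrain growth by repressing cyclins and the Polycomb methyltransferase Ezh2, and in human cells is known as a substrate of the uridylating enzyme ZCCHC11. The hosts Ctdsp1, Ctdsp2 and Ctdspl encode small phosphatases that act on the C-terminal domain of RNA polymerase II.

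The mature strands are shown because the 2 guides differ at so few bases that single substitutions and 3′ ends decide how a read is read. Sequences are from RefSeq on build GRCm38.p6, written 5′ to 3′ with the seed (bases 2 to 8) in capitals.
miR-26a-5p: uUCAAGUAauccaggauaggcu
miR-26b-5p: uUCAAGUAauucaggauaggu
miR-26a-1-3p: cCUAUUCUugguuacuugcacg
miR-26a-2-3p: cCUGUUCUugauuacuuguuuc
miR-26b-3p: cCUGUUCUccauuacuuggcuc
The guides share the seed UCAAGUA, and among 1679 mature mouse miRNA names in RefSeq only these 2 carry it. Counted from 1 at the 5′ end, with T for U and the miR-26a base first, they differ at C11T and C21T. The passenger strands miR-26a-2-3p and miR-26b-3p share the seed CUGUUCU, and miR-26a-1-3p has CUAUUCU.

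The hairpins are shown with both mature arms in capitals, because the bases that follow each guide set what counts as a tail.
Mir26a-1: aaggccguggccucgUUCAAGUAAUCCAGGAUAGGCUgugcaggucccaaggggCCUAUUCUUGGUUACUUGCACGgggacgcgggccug
Mir26a-2: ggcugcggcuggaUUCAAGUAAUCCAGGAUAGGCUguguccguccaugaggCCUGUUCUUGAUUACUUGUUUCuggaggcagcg
Mir26b: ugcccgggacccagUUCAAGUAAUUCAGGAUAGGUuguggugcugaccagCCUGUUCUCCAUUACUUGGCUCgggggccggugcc
The guide strand of Mir26a-1 and Mir26a-2 is the same, so its reads cannot be divided between those 2 loci. After the 21 nt of miR-26b-5p the precursor continues with a U, so a U added to that form would read as templated. After 22 nt the next base is G on all 3 hairpins.

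All 3 loci lie on the plus strand of their chromosomes, inside introns, in the GENCODE annotation of build GRCm38. Mir26b (ENSMUSG00000065468.1) spans chr1:74394310-74394394, in the 564-nt intron after exon 4 of the 7-exon transcript Ctdsp1-201. Mir26a-1 (ENSMUSG00000065513.1) spans chr9:119031796-119031885, in the 3283-nt intron after exon 5 of the 8-exon Ctdspl-201. Mir26a-2 (ENSMUSG00000065430.1) spans chr10:126995530-126995613, in the 1946-nt intron after exon 5 of the 8-exon Ctdsp2-202. The annotated first exon of the short transcripts Ctdsp2-201 and Ctdsp2-203 starts at 126995613, the last base of the Mir26a-2 hairpin. Reads of at least 18 nt unique to the host transcripts were few. Ctdsp1 had 3 in TuD-miR-122, 1 in TuD-let-7 and 2 in mock, Ctdsp2 had 6, 1 and 4 in the same order, and Ctdspl had none in any library.

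The TuD-miR-122, TuD-let-7 and mock libraries held 3681585, 2066892 and 3450317 reads, of which 72.0%, 73.1% and 78.5% were assigned to miRNAs. Levels are in RPM, reads per 1000000 of the miRNA reads that came from neither miR-122 nor let-7 family loci, called non-target reads here: 1445465, 483552 and 1369857 of them. This scale was used because miR-122-5p alone took 32.6%, 64.6% and 37.7% of all miRNA reads in the 3 libraries. The libraries also differed in miRNAs of other tissues. The 3 skeletal muscle miRNAs looked at summed to 926 RPM in TuD-miR-122 and 215 RPM in TuD-let-7, against 9795 RPM in mock, and 4 imprinted Dlk1-Dio3 miRNAs to 8109 and 1934 RPM, against 559.9 RPM. The 4 pancreas miRNAs summed to 1620.2, 163 and 119.7 RPM in TuD-miR-122, TuD-let-7 and mock, the 3 erythroid ones to 48758, 31179.7 and 34715 RPM, the 5 immune ones to 9364, 7255 and 10079 RPM and the 2 endothelial ones to 28915, 22151 and 23884 RPM. Whether such tissue content touched the miR-26 values was not tested. Of the hepatocyte miRNAs besides miR-122-5p, miR-192-5p stood at 35497, 45524 and 44404 RPM and miR-194-5p at 56909.7, 89134 and 65872 RPM.

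Together the miR-26 guides took 4.31% of non-target reads in TuD-miR-122, 3.07% in TuD-let-7 and 4.27% in mock. The level of both guides in TuD-miR-122 lay close to that in mock, while both were lower in TuD-let-7, miR-26b-5p by more than miR-26a-5p. miR-26a-5p had 40776 reads in TuD-miR-122, 10338 in TuD-let-7 and 37660 in mock, or 28209.6, 21379 and 27492 RPM. miR-26b-5p had 21484, 4511 and 20790 reads in the same order, or 14863, 9329 and 15177 RPM. TuD-let-7 is the low library for both guides, and the other two lie within a few percent of each other.

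Against mock, the level ratio of miR-26a-5p was 1.03 (interval 1.01 to 1.04) in TuD-miR-122 and 0.778 (0.761 to 0.795) in TuD-let-7. For miR-26b-5p the ratios were 0.979 (0.961 to 0.998) and 0.615 (0.595 to 0.635). None of these passed the threshold used, an interval wholly above 2-fold or below 0.5-fold with at least 100 reads over both libraries. Scaled to all reads of the library instead, both guides passed it downward in TuD-let-7, at 0.458 (0.448 to 0.468) and 0.362 (0.351 to 0.374). That scale shifted every TuD-let-7 ratio by -0.76 (log2). On it 38 non-target miRNAs passed the threshold downward and 4 upward, against 8 and 7 on the scale of non-target reads. On the latter scale, 13.7% of the 227 non-target miRNAs tested in TuD-miR-122 passed it upward and 4.85% downward. In TuD-let-7 these shares were 3.63% and 4.15% of 193. Set directly against TuD-miR-122, TuD-let-7 gave 0.758 (0.742 to 0.774) for miR-26a-5p and 0.628 (0.608 to 0.648) for miR-26b-5p.

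**Figure D1:**
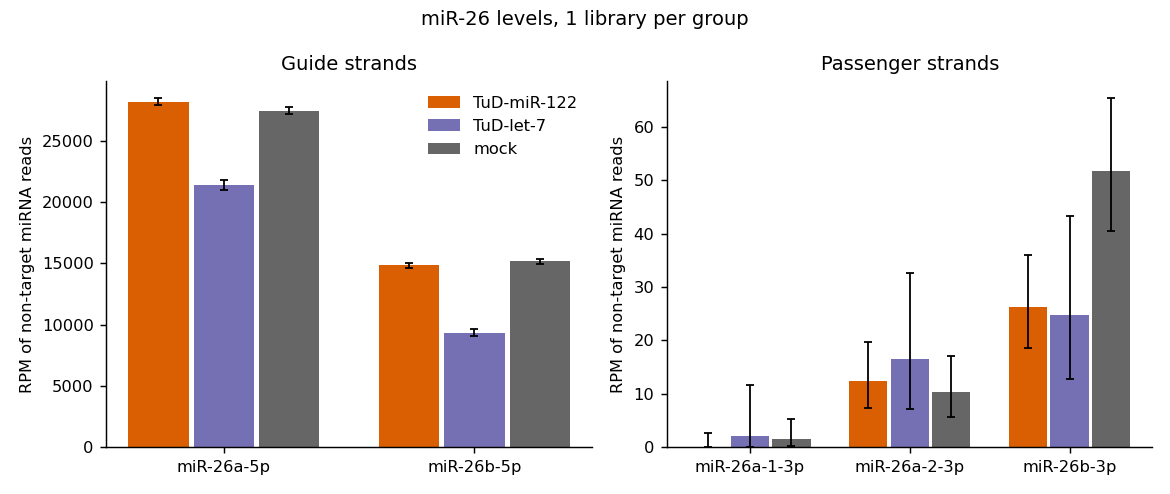
Levels of the miR-26 guide strands (left) and passenger strands (right) in RPM of non-target miRNA reads, 1 bar per library, with exact 95% counting intervals. Both guides are lowest in TuD-let-7, at 21379 RPM for miR-26a-5p and 9329 RPM for miR-26b-5p, and miR-26b-3p is highest in mock at 51.8 RPM.

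The place of the guides among all non-target miRNAs differed between the comparisons. The middle of the distribution lay near no change in both, with a median ratio of 0.985 (quartiles 0.798 and 1.29) in TuD-miR-122 and 0.985 (0.746 and 1.33) in TuD-let-7. In TuD-miR-122 both guides sat in the middle, with 123 of 227 miRNAs below miR-26a-5p and 110 below miR-26b-5p. In TuD-let-7, 52 of 193 miRNAs had a lower ratio than miR-26a-5p and 27 of 193 a lower ratio than miR-26b-5p. miR-26b-5p was therefore below the lower quartile there and miR-26a-5p just above it.

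**Figure D2:**
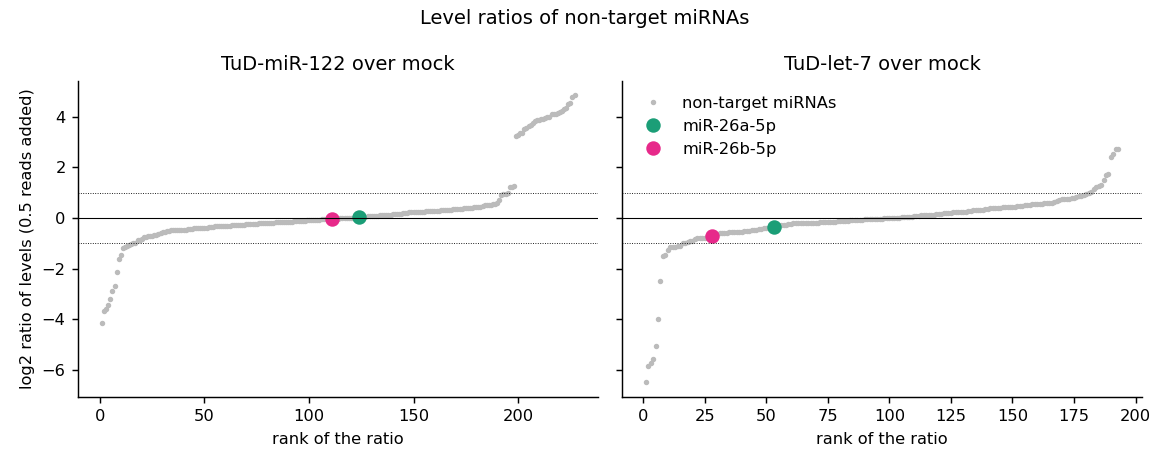
The log2 ratio of the level in TuD-miR-122 (left) and TuD-let-7 (right) over mock for each non-target miRNA with enough reads, in order of the ratio, with the 2-fold lines dotted and the miR-26 guides coloured. The guides lie mid-range on the left and in the lower part on the right, where 27 of 193 miRNAs are below miR-26b-5p.

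The balance of the guides moved with this. TuD-let-7 gave 2.29 miR-26a-5p reads per miR-26b-5p read (interval 2.21 to 2.37) and TuD-miR-122 gave 1.90 (1.87 to 1.93), against 1.81 (1.78 to 1.84) in mock. The interval of TuD-let-7 overlaps neither of the others. The order was the same when 1 substitution was allowed within the matching part, at 2.30 in TuD-let-7 and 1.86 in TuD-miR-122, against 1.79 in mock.

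By reads, miR-26a-5p ranked 13th in TuD-miR-122, 13th in TuD-let-7 and 12th in mock, and miR-26b-5p ranked 22nd, 33rd and 20th. Read counts of different miRNAs also carry differences in how well each sequence is captured, which were not measured. In mock the miRNAs just above miR-26a-5p were miR-29a-3p, miR-29b-3p and miR-451a, and those just below were let-7c-5p, miR-29c-3p and miR-101a-3p. Only let-7c-5p did not differ from it beyond counting error there, with a miR-26a-5p to let-7c-5p read ratio of 1.01 (0.996 to 1.02). The neighbours of miR-26b-5p were miR-30a-5p, let-7b-5p and miR-126a-3p above and miR-22-3p, miR-143-3p and miR-27b-3p below. Each of those differed from it by more than counting error in mock, the nearest being miR-22-3p at a read ratio of 1.05 (1.03 to 1.07). In TuD-let-7 all 6 of these were read more often than miR-26b-5p, which had 0.348 reads per miR-22-3p read there.

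Over 79 candidates (1000 or more mock reads, non-target), the pairs of log2 ratios nearest to that of miR-26a-5p belonged to miR-21a-5p, at a Euclidean distance of 0.10, miR-15a-5p at 0.17, miR-142a-3p at 0.19 and miR-10a-5p at 0.19. The family member miR-26b-5p came 14th at 0.35, and the median distance was 0.57. Nearest to miR-26b-5p were miR-126a-5p at 0.12, miR-10a-5p at 0.16, miR-32-5p at 0.21 and miR-361-5p at 0.22, with miR-26a-5p at rank 9. These distances rest on 2 ratios that share the mock library.

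Passenger strands were rare, and miR-26b-3p had the most reads. It had 38 reads in TuD-miR-122, 12 in TuD-let-7 and 71 in mock, or 26.3, 24.8 and 51.8 RPM. Its ratio to mock was 0.507 (0.333 to 0.762) in TuD-miR-122 and 0.479 (0.236 to 0.889) in TuD-let-7, so both intervals lay below 1. The TuD-let-7 and mock libraries together held fewer than the 100 reads that the 2-fold threshold asks for. miR-26a-2-3p had 18, 8 and 14 reads in the same order. miR-26a-1-3p had 0, 1 and 2 reads, and the 0 in TuD-miR-122 allows a level of up to 2.08 RPM, the value of 3 reads.

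Guides far outnumbered passengers. Reads of miR-26b-5p per miR-26b-3p read came to 565 (412 to 799) in TuD-miR-122 and 376 (215 to 728) in TuD-let-7, against 293 (232 to 375) in mock. The TuD-miR-122 interval lies above that of mock and the TuD-let-7 interval overlaps it. For miR-26a-5p, per read of either miR-26a passenger, the ratios were 2265 (1433 to 3823), 1149 (605 to 2513) and 2354 (1449 to 4118), and all 3 intervals overlap.

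The 3′ ends were read against the precursor. A read was given to a guide when its first base was that of the guide and its first 16 nt or more matched the hairpin without mismatch. What remained, up to 5 nt, was its tail, and reads matching for fewer than 21 nt are called trimmed. The most frequent untailed form and its single-T form are printed in DNA letters, with added bases in capitals.
miR-26a, 22 nt: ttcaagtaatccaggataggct
miR-26a, 22 nt plus T: ttcaagtaatccaggataggctT
miR-26b, 22 nt: ttcaagtaattcaggataggtt
miR-26b, 22 nt plus T: ttcaagtaattcaggataggttT
The 22-nt form of miR-26a was read 21023, 4422 and 17669 times in TuD-miR-122, TuD-let-7 and mock, and that of miR-26b 8082, 1467 and 7017 times. With 1 T added, miR-26a was read 4979, 1206 and 4775 times and miR-26b 5020, 742 and 4846 times. The main miR-26b form is thus 1 nt longer than the RefSeq strand. Its last U matches the next base of the precursor and cannot be told apart from an added U.

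miR-26 was one of the more heavily tailed miRNAs of these livers, and T was the commonest tail base. A tail was found on 36.8% of miR-26a-5p reads in TuD-miR-122, 47.4% in TuD-let-7 and 41.7% in mock, and on 42.5%, 48.1% and 45.9% of miR-26b-5p reads. Tails of T alone made up 20.03%, 18.1% and 20.7% of miR-26a-5p reads and 25.8%, 17.9% and 25.6% of miR-26b-5p reads. In mock the T-only share was higher in 15 of the 80 non-target miRNAs of 1000 or more reads than in miR-26a-5p, and in 10 of them than in miR-26b-5p, with a median of 7.07%. The highest in mock were miR-23b-3p at 51.4%, miR-24-3p at 43.6% and miR-143-3p at 39.2%.

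A-only tails were fewer. They made up 9.63% of miR-26a-5p reads in TuD-miR-122, 9.73% in TuD-let-7 and 11.7% in mock, and 11.8%, 12.02% and 14.8% of miR-26b-5p reads. T-only reads per A-only read came to 2.08, 1.86 and 1.76 for miR-26a-5p and to 2.19, 1.49 and 1.73 for miR-26b-5p. TuD-miR-122 thus had the highest T to A balance for both guides, and TuD-let-7 the lowest for miR-26b-5p but not for miR-26a-5p. These balances were given no intervals and were not set against those of other miRNAs. Tails of A and T together were more frequent on miR-26a-5p, at 5.21%, 5.11% and 6.52% of reads, than on miR-26b-5p, at 2.10%, 1.64% and 2.25%. This contrast depends on where the tail is taken to start. A U followed by A, added at the RefSeq end of miR-26b-5p, would count as an A-only tail.

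The guides differed from each other in the length of their T tails, counted past the part that matches the precursor. A single T was found on 12.7%, 12.2% and 13.1% of miR-26a-5p reads in TuD-miR-122, TuD-let-7 and mock and on 23.4%, 16.5% and 23.4% of miR-26b-5p reads. T tails of 2 to 5 nt were found on 7.31%, 5.92% and 7.51% of miR-26a-5p reads and on 2.41%, 1.37% and 2.19% of miR-26b-5p reads. Counted in this way, miR-26a-5p therefore carried the longer T tails and miR-26b-5p the more frequent single T, in every library. The contrast depends on where the tail is taken to start. The precursor base after the RefSeq end of miR-26b-5p is a U, so a U added at that end was not counted as tail. T tails of miR-26b-5p may therefore be longer and more frequent than counted, and these values cannot decide which guide had the longer added tails.

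Where the tail sat also differed. On miR-26a-5p, A-only tails took 25.6%, 29.4% and 28.2% of reads matching for 21 nt, against 6.57%, 7.38% and 8.67% of those with a 22-nt part. On miR-26b-5p the 21-nt part carried A-only tails in 10.9%, 10.99% and 10.2% of its reads and the 22-nt part in 12.5%, 15.7% and 17.0%. The excess of A on the 21-nt part was thus seen on miR-26a-5p and not on miR-26b-5p. A U after 21 nt counts as templated on both guides.

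**Figure D3:**
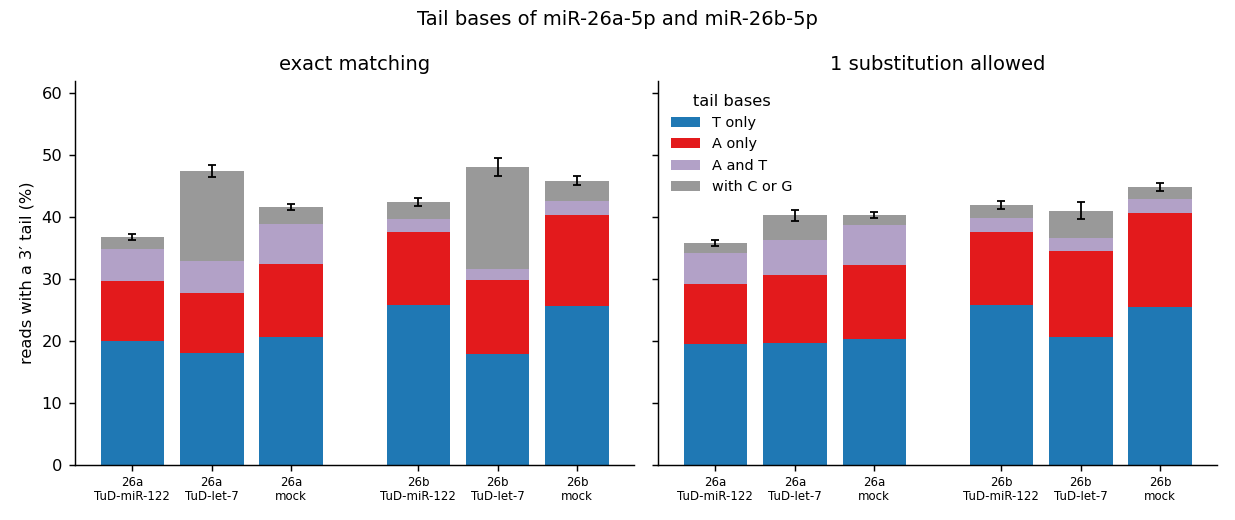
Share of miR-26a-5p and miR-26b-5p reads with a 3′ tail, split by tail bases, in each library, with reads matched exactly (left) and with 1 substitution allowed (right); bars through the tops are exact 95% intervals of the tailed share. The grey class with C or G is 14.5% and 16.6% in TuD-let-7 on the left and 4.08% and 4.41% on the right.

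Against mock, the tailed share in TuD-miR-122 differed by -4.92 points for miR-26a-5p and -3.42 points for miR-26b-5p, against a median of -0.95 points over 74 non-target miRNAs. Neither reached the 5 points used as a threshold, which 9.46% of the 74 passed downward and 2.70% upward. The value of miR-26a-5p lay close to that threshold. Of the tail kinds, A-only tails differed by -2.08 and -3.01 points and T-only tails by -0.64 and 0.24 points. A-only tails were thus a larger part of the difference than T-only tails on both guides. Over the 74 miRNAs the median A-only difference was -0.22 points, with 14 below miR-26a-5p and 10 below miR-26b-5p. Trimming in TuD-miR-122 was close to mock, with differences of -0.66 and -1.06 points. Neither guide passed 5 points there, as 2.70% of the 74 did downward and 0.00% upward. With 1 substitution allowed, which let more reads be assigned, 2.50% of 80 did so downward.

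In TuD-let-7 exact matching gave both guides a much larger trimmed share than in mock. It was 18.6% in TuD-let-7 against 7.29% in mock for miR-26a-5p and 18.3% against 5.23% for miR-26b-5p, while TuD-miR-122 had 6.63% and 4.18%. The differences from mock were 11.3 points (10.5 to 12.1) and 13.1 points (11.9 to 14.2), with a median of 2.73 points over 49 miRNAs. Both passed 5 points, as did 40.8% of those 49, and 4 miRNAs lay above miR-26a-5p and 1 above miR-26b-5p. Tails holding C or G made up 14.5% and 16.6% of the reads of these guides in TuD-let-7, against 2.78% and 3.30% in mock.

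Most of these trimmed reads of TuD-let-7 did not end short. Past the first base that differed from the precursor they went back to the precursor sequence for at least 2 nt, so that exact matching counted a longer read with a single substitution as a short one with a tail. The 2 commonest such reads carry the substituted base, printed in capitals, at position 19.
miR-26a, G19T: ttcaagtaatccaggataTgct
miR-26b, G19T: ttcaagtaattcaggataTgtt
The miR-26a read with G19T was found 32 times in TuD-miR-122, 591 times in TuD-let-7 and 43 times in mock, and the miR-26b read 15, 192 and 23 times. TuD-let-7, the shallowest library, thus held by far the most of both.

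For miR-26a-5p in TuD-let-7, 1306 of 1921 trimmed reads (68.0%) resumed the precursor in this way, 996 of them after a substitution at position 19. In TuD-miR-122 321 of 2704 did, and in mock 579 of 2747. For miR-26b-5p, 614 of 825 (74.4%) resumed in TuD-let-7, 479 of them at position 19, while TuD-miR-122 had 131 of 897 and mock 313 of 1088. With the resuming reads not called trimmed, a choice made after seeing the data, the trimmed share of miR-26a-5p was 5.84% in TuD-miR-122, 5.95% in TuD-let-7 and 5.76% in mock. That of miR-26b-5p was 3.57%, 4.68% and 3.73%. The difference of TuD-let-7 from mock then came to 0.192 points (-0.321 to 0.705) for miR-26a-5p and 0.9497 points (0.282 to 1.62) for miR-26b-5p.

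Allowing 1 substitution within the matching part, followed by at least 2 matching bases, also brought the differences down, though to larger values than leaving out the resuming reads. The trimmed share was then 5.23%, 7.19% and 5.38% for miR-26a-5p and 3.31%, 5.93% and 3.62% for miR-26b-5p in TuD-miR-122, TuD-let-7 and mock. The differences of TuD-let-7 from mock were 1.81 points (1.29 to 2.33) and 2.31 points (1.61 to 3.01), next to a median of 2.25 over 54 miRNAs, of which 13.0% passed 5 points upward and 3.70% downward. The tailed share of miR-26a-5p became 40.3% in TuD-let-7 against 40.4% in mock, and that of miR-26b-5p 41.0% against 44.8%. The higher tailed share of TuD-let-7 under exact matching, by 5.70 and 2.21 points, was therefore -0.093 and -3.81 points under this matching. The median tailed difference was 2.69 points over 49 miRNAs under exact matching, with 29 below miR-26a-5p and 22 below miR-26b-5p. With 1 substitution allowed it was 1.39 points over 54, with 13 below miR-26a-5p and 2 below miR-26b-5p. By this matching miR-26b-5p was thus near the low end. Exact matching put 40.8% of the 49 miRNAs past 5 points upward in tailed share and 2.04% downward, and matching with 1 substitution put 25.9% of 54 upward and 3.70% downward.

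**Figure D4:**
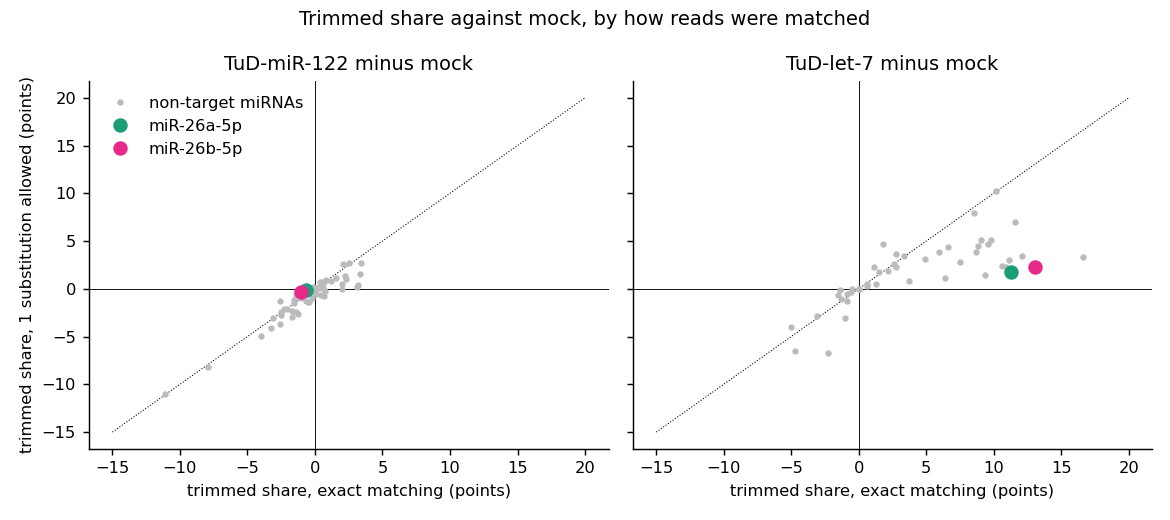
Difference in trimmed share from mock for each non-target miRNA, with reads matched exactly (x axis, points) against 1 substitution allowed (y axis, points), for TuD-miR-122 (left) and TuD-let-7 (right); the dotted line marks equal values. In TuD-let-7 the miR-26 guides stand at 11.3 and 13.1 points on the x axis and at 1.81 and 2.31 points on the y axis.

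The substitutions sat at set positions in each library. At position 19, reads with 1 substitution made up 0.30% of miR-26a-5p reads in TuD-miR-122, 12.02% in TuD-let-7 and 0.36% in mock, out of those plus exact reads, and 0.22%, 11.8% and 0.38% of miR-26b-5p reads. At position 18 the shares were 0.44%, 4.50% and 1.49% for miR-26a-5p and 0.40%, 4.75% and 1.48% for miR-26b-5p, mostly A18C. At position 14 they were 4.14%, 0.66% and 0.33% for miR-26a-5p and 4.42%, 0.62% and 0.42% for miR-26b-5p, mostly G14T. On the bases that these guides hold, TuD-let-7 thus stood out at positions 18 and 19 and TuD-miR-122 at position 14, by like amounts on both guides.

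**Figure D5:**
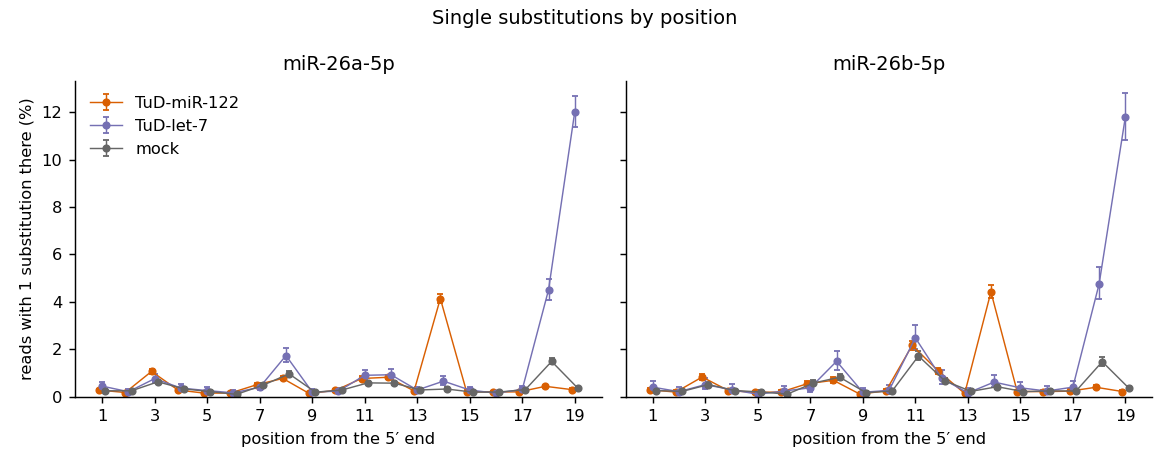
Share of reads with 1 substitution at each position from the 5′ end, out of those plus exact reads, for miR-26a-5p (left) and miR-26b-5p (right) in each library, with exact 95% intervals. TuD-let-7 peaks at position 19 (12.02% and 11.8%) and TuD-miR-122 at position 14 (4.14% and 4.42%) on both guides.

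Other miRNAs with the same base at the same place had the same substitutions. Over 16 other miRNAs with G at position 19 and at least 1000 exact reads in TuD-let-7, G19T had a median share of 10.2% and reached 1% in all 16, the highest being miR-146a-5p at 16.9%. The median was 0.155% over 23 miRNAs in TuD-miR-122 and 0.220% over 25 in mock. G14T in TuD-miR-122 had a median of 3.001% over 21 miRNAs and reached 1% in all of them, against 0.181% over 20 in mock. The miR-26 values of G19T in TuD-let-7, 11.8% on both guides, therefore lay within the range of the other miRNAs. A18C had a median of 3.13% over 10 miRNAs in TuD-let-7, 0.319% over 12 in TuD-miR-122 and 1.42% over 13 in mock. The pattern also depended on the base. A19C had a median of 2.51% over 14 miRNAs in TuD-miR-122, against 0.176% over 9 in TuD-let-7 and 0.519% over 11 in mock.

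Substitutions also bore on how many reads were assigned at all. A read with G14T matches the precursor for under 16 nt and was not counted under exact matching, and with 1 substitution allowed the non-target reads grew by 8.54% in TuD-miR-122, 24.3% in TuD-let-7 and 7.76% in mock. The share of miR-26a-5p reads that were substituted was then 10.8%, 22.4% and 8.13%, and that of miR-26b-5p 12.4%, 23.5% and 9.13%. The level ratios of TuD-let-7 to mock were 0.708 for miR-26a-5p and 0.551 for miR-26b-5p on that count, so both guides stayed lower in TuD-let-7. In TuD-let-7 the guides had 11524 and 5011 reads on that count, against 10338 and 4511 under exact matching. Both rose by a smaller share than the non-target reads of that library did.

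At position 11, where the guides differ, a miscall would turn one into the other. miR-26a-5p showed substitutions there in 0.77% of reads in TuD-miR-122, 0.91% in TuD-let-7 and 0.59% in mock, next to 0.82%, 0.93% and 0.57% at position 12. miR-26b-5p showed 2.17%, 2.49% and 1.72% at position 11. Of these, the T11C reads, which hold the miR-26a base and a miR-26b end, made up 2.06%, 2.33% and 1.60% and cannot be told apart from miR-26a trimmed to 20 nt with a T tail. The T11C reads numbered 432, 88 and 321, or 1.06%, 0.851% and 0.852% of the miR-26a-5p reads. Reads the other way round, with the miR-26b base and a miR-26a end, numbered 257, 67 and 172. These came to 1.20%, 1.49% and 0.827% of the miR-26b-5p reads. They match the miR-26b precursor for 20 nt, which counts as trimmed under exact matching.

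T-only tails of miR-26b-5p remained lower in TuD-let-7 when the full-length reads alone were compared. Of reads matching for 22 nt, 28.9% (27.2 to 30.6) had a T-only tail in TuD-let-7 and 34.4% (33.7 to 35.2) in TuD-miR-122, against 34.5% (33.8 to 35.3) in mock. On miR-26a-5p the same shares were 24.9% (23.9 to 25.9) in TuD-let-7 and 23.8% (23.4 to 24.3) in TuD-miR-122, against 25.3% (24.8 to 25.8) in mock. The T-only share of miR-26b-5p over all its reads differed from mock by -7.67 points (-8.94 to -6.40) with exact matching and -4.79 points (-6.04 to -3.53) with 1 substitution allowed, while that of miR-26a-5p differed by -2.58 points (-3.43 to -1.74) and -0.80 points (-1.63 to 0.02), the second covering 0. Over the 49 miRNAs compared, the median T-only difference under exact matching was -0.19 points, with 3 below miR-26b-5p and 8 below miR-26a-5p. With 1 substitution allowed it was 0.01 points over 54 miRNAs, with 3 below miR-26b-5p and 16 below miR-26a-5p. By that matching miR-26b-5p stayed near the low end and miR-26a-5p lay between the quartiles, -1.19 and 0.78 points. The T-only difference from mock was thus further below 0 on miR-26b-5p than on miR-26a-5p under both ways of matching.

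The 5′ end, which sets the seed, varied little but was not the same in the 3 libraries. Reads that began 1 nt late made up 1.33% (1.22 to 1.44) of miR-26a-5p reads in TuD-miR-122 and 1.05% (0.865 to 1.27) in TuD-let-7, against 0.146% (0.110 to 0.190) in mock. For miR-26b-5p they made up 1.33% (1.18 to 1.49) and 0.963% (0.701 to 1.29), against 0.0432% (0.0198 to 0.0821). The miR-26a form without its first base, printed here because its seed is shifted by 1 base, was read 290 times in TuD-miR-122 and 48 times in TuD-let-7, against 29 times in mock.
miR-26a, first base missing: tcaagtaatccaggataggct
Both decoy libraries were above mock for both guides, with intervals that do not overlap.

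The difference from mock in late starts was 1.18 points for miR-26a-5p and 1.28 points for miR-26b-5p in TuD-miR-122, next to a median of 0.227 points over 76 non-target miRNAs. Of those 76, 19.7% differed by over 1 point, and 9 lay above miR-26a-5p and 6 above miR-26b-5p. In TuD-let-7 the differences were 0.905 and 0.920 points, with a median of 0.0417 over 51 miRNAs, 11.8% of them over 1 point. Late starts were therefore more frequent than in mock by a larger amount on the miR-26 guides than on most other miRNAs in both comparisons.

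miRNAs that, like miR-26, lie in introns of protein-coding genes on the same strand differed little from mock as a list, which holds the miR-26 guides too. Of 82 tested in TuD-miR-122, 0 passed the 2-fold threshold in either direction, against 13.7% upward and 4.85% downward of all 227, and 47 had a ratio below 1, with a median of 0.952 beside 0.985 over all, of which 52.0% were below 1. Of 72 tested in TuD-let-7, 1 passed upward and 0 downward, against 3.63% and 4.15% of all 193, and 40 had a ratio below 1, with a median of 0.951 beside 0.985 over all, of which 51.8% were below 1. Among its most abundant members, miR-101b-3p from Rcl1 had a ratio of 0.940 in TuD-miR-122 and one of 1.23 in TuD-let-7, and miR-126a-3p from the endothelial gene Egfl7 had 1.28 and 1.08. miR-27b-3p had 0.865 and 0.744, and miR-30e-5p from Nfyc had 0.915 and 1.10. In TuD-let-7, miR-26b-5p at 0.615 was thus below each of these 4, and miR-26a-5p at 0.778 was below 3 of them. Not all members of the list were above the guides there. miR-126a-5p, also from Egfl7, had 0.596, below both guides, and miR-23b-3p had 0.682, below miR-26a-5p.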

How the data were processed

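Small RNA libraries were made from liver RNA of 18 to 30 nt, per the labels' protocols. The authors deposited raw counts, 1 read count per distinct insert of 15 to 30 nt, not normalised; the sources used here do not name adapter removal, filters, an aligner or a genome build. Groups follow the labels, with 1 library each. Inserts were assigned in Python 3.11 to the 1174 precursors of GENCODE mouse release 21. The 5′ end of an arm was the most frequent untailed start over the 3 libraries (at least 10 reads), which gave 460 arms, merged to 404 entries on their first 22 nt. Reads that fitted several entries equally stayed out. Ratio intervals were exact conditional-binomial and share intervals Clopper-Pearson (SciPy 1.17). Differences between shares have normal-approximation intervals. There was no test. Shares were compared where both libraries had 1000 or more reads of a miRNA. The code was tested on simulated data. Named miRNAs were the guides, the passengers, 3 neighbours by reads on each side, the 4 nearest patterns and the 4 most abundant other intronic miRNAs. miRNAs named for the highest share of T tails or of a substitution were chosen after their values were seen. The members and lists were chosen with earlier results of these data known. Reads have no molecular identifiers, so intervals and floors cover counting error only.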

Additional observations from a re-analysis of the deposited data

How the results depend on the processing

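Each group had 1 library, so no alternative has a test, and the depth of TuD-let-7 (483552 non-target reads) limits what passenger strands and rare forms can show. No paired analysis was possible because each group had 1 library. Level ratios are given for miR-26a-5p and then miR-26b-5p. In TuD-let-7 they were 0.458 and 0.362 per all reads, both past the 2-fold threshold downward, a scale that shifted the median miRNA by -0.76 (log2), 0.708 and 0.551 with 1 substitution allowed, and 0.719 and 0.562 with tails of at most 2 nt. Over TuD-miR-122 the TuD-let-7 ratio of miR-26a-5p was 0.758. In TuD-miR-122 they were 0.994 and 0.949 with median-of-ratios scaling, 1.05 and 1.01 with 1 substitution allowed, and 1.32 and 1.59 over TuD-let-7. The trimmed difference of TuD-let-7 from mock was 9.84 and 11.7 points with a match of at least 18 nt, 1.81 and 2.31 with 1 substitution, 0.506 and 1.19 with tails of at most 2 nt, and 0.192 and 0.9497 without resuming reads (added after seeing the data). The trimmed difference of TuD-miR-122 was -0.00963 and -0.372, -0.150 and -0.303, -0.00971 and -0.274, and 0.0874 and -0.162 points under the same 4 settings, -1.14 for miR-26a-5p with trimmed meaning under 20 nt, and -12.0 and -14.1 against TuD-let-7. The tailed difference of TuD-let-7 with 1 substitution was -0.0929 (-1.11 to 0.924) for miR-26a-5p, which covers 0. For miR-26b-5p it turned round to -3.81 (-5.32 to -2.30). With tails of at most 2 nt the tailed difference turned round to -1.28 and -5.36. This difference was 7.22 and 4.77 with single A tails not counted, and 10.6 and 5.64 against TuD-miR-122. For TuD-miR-122 the last 2 settings gave -3.48 and -0.498, and -10.6 and -5.64. Removing inserts read once, reads with the other guide's end, or the need for an exact start moved none of these 12 values beyond counting error. Without reads of the other guide's end, the tailed difference of miR-26a-5p in TuD-miR-122 was -5.10 points (-5.79 to -4.42). The main value was -4.92, so this setting took it past the 5-point threshold. With at least 20 reads in place of 100, 52 miRNAs were past 2-fold upward in TuD-miR-122 (31 with 100) and 12 in TuD-let-7 (7 with 100). The lower read limit also lets more miRNAs be tested. Their number is not given here, so these counts cannot be read as shares. Scaling to all reads gave 4 higher and 38 lower in TuD-let-7, against 7 and 8.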
